A study of Rattus norvegicus with 10 samples.

Results

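The RT1 genes are the major histocompatibility genes of the rat. They were described here in whole retinas of rat pups at postnatal day 3. The members were the probe sets to which the array's annotation gives a single gene symbol beginning with RT1-. There were 35 such probe sets among 27342, and they stood for 34 of the 14324 singly named genes, 25 of class I and 9 of class II. RT1-T24-4 had more than 1 probe set and was counted by the one with the highest mean over the 10 arrays. A further 4 probe sets, each listing several RT1 symbols, were left out. The classical class I genes RT1-A1, RT1-A2 and RT1-A3 are listed only on one of those, so the class I members are the loci of the CE (10 genes), M (7), T (3), N (2), S (2) and O (1) series.

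The study set 2 strains and 2 exposures against each other: F344 (Fischer) and SD (Sprague Dawley) rats, which its design text calls resistant and susceptible to oxygen-induced retinopathy. Hyperoxia litters were placed in the chamber at most 12 hours after birth, where oxygen changed between 80% and 21% every 24 hours until day 3. Controls of the same age stayed in room air. Room air had 2 F344 pools and 3 SD pools, and cyclic hyperoxia 3 F344 pools and 2 SD pools. A pool held retinal RNA of 3 rats taken from 2 litters and went on 1 array, so differences between single rats were not measured. F344 is an inbred strain and SD an outbred stock, and the labels do not state the RT1 types of the animals.

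Class I molecules are a heavy chain bound to beta-2 microglobulin that shows peptides from inside the cell to CD8 T cells and natural killer cells. Class II molecules are pairs of an alpha and a beta chain that show peptides taken up from outside to CD4 T cells, and they are made mainly by dendritic cells, B cells and activated macrophages or microglia. The RT1-B and RT1-D pairs present peptides, RT1-DM loads them and RT1-DO restrains RT1-DM. Healthy neural retina holds few cells that make class II molecules.

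The arrays were first checked against the labelled tissue. All 11 measured progenitor genes, all 10 photoreceptor genes and all 10 ganglion cell genes lay above the array median in every array, while 0 of 13 T and natural killer cell genes, 0 of 4 B cell genes and 0 of 7 dendritic cell genes did. Of 6 lens genes 0 did, but Cryba1 and Crygd varied within groups. Cryba1 read 5.5, 7.1 and 8.8 in the SD room-air pools and 5.5, 8.2 and 6.8 in the F344 hyperoxia pools. Crygd read 4.7, 6.7 and 7.3, and 4.8, 7.6 and 5.1, in the same pools. The part of lens tissue in the RT1 values was not tested. SD room-air pool 3 and F344 hyperoxia pool 3 stood apart on the first principal component (36.41 and 30.08, the other 8 arrays between -13.36 and -1.765). SD room-air pool 3 alone was highest in 8 of the 34 RT1 genes (23.5%, against 9.51% of all genes). A term common to both of these arrays was above 0 for 25 of the 34 RT1 genes and for 7125 of all 14324 genes. By limma 3 class I genes were higher in these arrays, RT1-M6-1, RT1-O1 and RT1-T24-4, with 0 lower (16.1% of all genes passed in either direction). Most RT1 probe sets were dim: 25 of 34 lay below the array median in every array, and RT1-CE13 and RT1-DMa above it in every array. Of all 14324 genes, 5565 lay below it in every array and 7788 above it.

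SD retinas had more RT1-Bb and RT1-DOb signal than F344 retinas, in room air and in cyclic hyperoxia alike. No other RT1 gene passed the test. RT1-Bb encodes the beta chain of the RT1-B molecule, and RT1-DOb the beta chain of RT1-DO. In room air 2 of the 9 class II genes and 0 of the 25 class I genes were higher in SD (limma, Benjamini-Hochberg adjusted p under 0.05 over all probe sets, two-sided; 0.377% of all genes were higher), and 0 were lower (0.175%). In hyperoxia the counts were again 2 and 0 higher (0.237%) and 0 lower (0.237%).

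RT1-Bb read 5.4 and 5.6 in the F344 room-air pools and 7.4, 7.2 and 7.3 in the SD room-air pools, on the deposited log2 scale. In hyperoxia it read 5.5, 5.3 and 5.6 in F344 and 7.2 and 7.4 in SD. Every SD pool thus lay above every F344 pool, and within a strain the pools lay close together. The difference, SD minus F344, was 1.80 in room air (SE 0.126, 3.48-fold, adjusted p = 1.66e-05) and 1.83 in hyperoxia (SE 0.126, 3.56-fold, adjusted p = 1.21e-05). By size it was the 4th and the 7th largest strain difference among all named genes.

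RT1-DOb read 5.0 and 5.2 in F344 and 6.0, 6.2 and 5.9 in SD in room air. In hyperoxia it read 5.1, 4.9 and 5.0 in F344 and 6.2 and 6.3 in SD. The strains did not overlap in this gene either. The difference was 0.93 in room air (SE 0.122, 1.91-fold, adjusted p = 0.0033) and 1.25 in hyperoxia (SE 0.122, 2.38-fold, adjusted p = 2.87e-04). The room-air call was lost without F344 room-air pool 1 (0.83, adjusted p = 0.0963) and when only the room-air arrays were fitted (0.93, adjusted p = 0.175). Without both arrays numbered 3, RT1-Bb differed by 1.80 and 1.90 and RT1-DOb by 1.00 and 1.25 in room air and hyperoxia, and all 4 differences passed (adjusted p between 9.50e-04 and 0.0149).

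The alpha chain partners of these beta chains did not pass. RT1-Ba, the partner of RT1-Bb, read 5.0 and 4.8 in F344 and 5.1, 5.0 and 5.4 in SD in room air, and 4.8, 4.7 and 4.8 in F344 and 5.3 and 5.2 in SD in hyperoxia. Its strains met at 5.0 in room air and did not overlap in hyperoxia. SD minus F344 stood at 0.27 (SE 0.129, adjusted p = 0.462) in room air and at 0.48 (SE 0.129, adjusted p = 0.24) in hyperoxia. With a term for the arrays numbered 3 the hyperoxia value was 0.55 and passed (adjusted p = 0.04), and with array weights it was 0.48 (adjusted p = 0.0483). RT1-DOa, the partner of RT1-DOb, read 5.4 and 5.3 in F344 and 5.3, 5.0 and 5.2 in SD in room air, and 5.4, 5.2 and 5.2 in F344 and 5.1 and 5.2 in SD in hyperoxia, so that the strains met or overlapped in both. Its differences were -0.18 (95% interval -0.44 to 0.08) and -0.12 (-0.38 to 0.14).

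**Figure D1:**
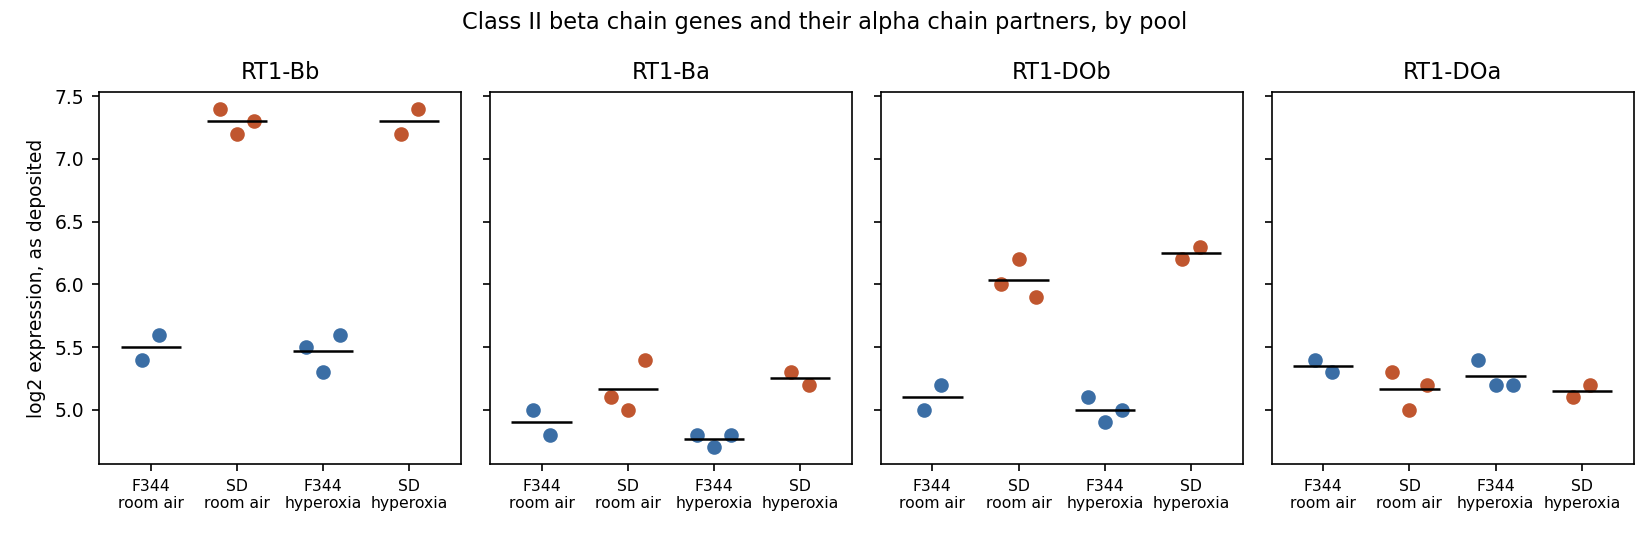
Log2 expression of RT1-Bb, RT1-Ba, RT1-DOb and RT1-DOa (vertical axis, as deposited) in each of the 10 pools, by strain and exposure; points are pools and lines are group means. The SD pools of RT1-Bb sit at 7.2 to 7.4 and the F344 pools at 5.3 to 5.6, while all pools of RT1-Ba and RT1-DOa sit between 4.7 and 5.4.

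The other 5 class II genes did not pass, with values between -0.33 and 0.12. RT1-Da, the alpha chain of RT1-D, had differences of -0.05 (SE 0.122) and -0.33 (95% interval -0.60 to -0.07, adjusted p = 0.568) in room air and hyperoxia, and RT1-Db1, a beta chain of RT1-D, had 0.07 and 0.08 (SE 0.118). RT1-DMa and RT1-DMb, the chains of the peptide loader, stood at -0.27 and 0.08 in room air and at -0.18 and -0.27 in hyperoxia. RT1-DMa read 7.1 in both F344 pools and 6.7, 6.8 and 7.0 in SD in room air, and 6.9, 7.0 and 6.9 in F344 and 6.7 and 6.8 in SD in hyperoxia, without overlap in either. RT1-Ha stood at -0.07 and 0.12. In hyperoxia RT1-Da (4.7, 4.4 and 4.5 in F344, 4.3 and 4.1 in SD) and RT1-DMb (4.9, 5.1 and 5.2 in F344, 4.8 in both SD pools) did not overlap either. In all, the strains did not overlap in 6 of the 9 class II genes in hyperoxia, 3 with SD above and 3 with SD below (15.4% of all genes), and in 3 of 9 in room air (20.7%).

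The promoters of both pairs are shown because RT1-Bb and RT1-DOb passed in both exposures and their partners did not pass in the fit above. They are from RefSeq on GRCr8, the genome of the BN/NHsdMcwi strain, and not from F344 or SD. Each run is the part of the 250 bases before the listed start that lies outside the annotated gene, 5′ to 3′, so that RT1-DOb is shown over 236 bases and RT1-DOa over 182. Matches to TGATTGG on either strand are in capitals. This word is an extended core of the Y box, the site of the factor NF-Y in promoters of histocompatibility genes.
RT1-Bb (chr20:4604119-4604368, minus strand): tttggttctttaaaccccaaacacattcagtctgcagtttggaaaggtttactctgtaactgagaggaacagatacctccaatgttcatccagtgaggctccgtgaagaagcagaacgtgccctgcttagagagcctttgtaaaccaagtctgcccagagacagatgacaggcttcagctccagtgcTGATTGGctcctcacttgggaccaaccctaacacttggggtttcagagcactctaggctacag
RT1-DOb (chr20:4627538-4627773, minus strand): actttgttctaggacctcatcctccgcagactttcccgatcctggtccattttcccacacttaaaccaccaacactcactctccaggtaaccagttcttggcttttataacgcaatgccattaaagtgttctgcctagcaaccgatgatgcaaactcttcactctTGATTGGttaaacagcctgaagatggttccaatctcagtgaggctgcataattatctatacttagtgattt
RT1-Ba (chr20:4576807-4577056, plus strand): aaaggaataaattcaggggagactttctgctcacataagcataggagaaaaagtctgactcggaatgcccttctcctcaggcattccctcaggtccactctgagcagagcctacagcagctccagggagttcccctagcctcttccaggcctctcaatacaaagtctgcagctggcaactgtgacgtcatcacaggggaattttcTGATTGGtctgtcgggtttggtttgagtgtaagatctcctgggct
RT1-DOa (chr20:4758492-4758673, minus strand): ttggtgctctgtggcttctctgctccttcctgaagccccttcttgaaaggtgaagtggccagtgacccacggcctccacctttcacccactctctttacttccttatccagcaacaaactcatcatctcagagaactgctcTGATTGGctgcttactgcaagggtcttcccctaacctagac

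RefSeq held a promoter for 31 of the 34 genes, 8 of class II and 23 of class I. In the 250 bases before the start, TGATTGG matched in 8 of 8 class II and 9 of 23 class I promoters, and in 6.42% of all 33469 promoters of the same window. This count, like those below, took all 250 bases, also those inside the annotated gene. The match lay inside the gene in RT1-CE4, RT1-CE11, RT1-CE16 and RT1-S3, and outside it in the 8 class II promoters. Counted back from the listed start, it lay 63 to 57 bases before the start in RT1-Bb and 85 to 79 in RT1-DOb, and 45 to 39 in RT1-Ba and 109 to 103 in RT1-DOa. The motif was thus in the pair that passed and in the pair that did not pass in that fit. Its shorter core ATTGG, which every TGATTGG contains, matched in 8 of 8 and 15 of 23 (34% of all promoters). TGACG, a short form of the neighbouring X2 box, matched in RT1-Ba of class II, 1 of 8, and in 5 of 23 of class I (18.2% of all). An interferon response element, searched as GAAA repeated after 2 unspecified bases, matched in 0 of 8 and 3 of 23 (3.41% of all), the 3 being RT1-N3, RT1-S2 and RT1-S3.

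The class I genes lay on both sides of 0. In room air 12 were above 0, 12 below and 1 at 0, with a median of 0 (all genes 0), and in hyperoxia 11 were above and 14 below, with a median of -0.02 (all genes 0). The class II medians were 0.07 and 0.08. The size of a typical difference, whatever its sign, was 0.15 in class I and 0.18 in class II in room air and 0.12 and 0.27 in hyperoxia, against 0.12 and 0.10 over all genes. The 95% intervals of all 25 class I genes lay within a 2-fold difference in both exposures, and those of 17 genes in room air and 19 in hyperoxia within a 1.5-fold difference. Of all 14324 genes, 14089 in room air and 14155 in hyperoxia lay within a 2-fold difference. Within a 1.5-fold difference lay 12058 and 12582, a larger share than in class I.

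RT1-M3-1, for which RefSeq lists H2-M3 as a synonym, encodes a class I molecule that presents formylated peptides, and had the largest class I value in room air. It read 5.3 and 5.0 in F344 and 4.7, 4.5 and 4.7 in SD, and in hyperoxia 5.1, 5.0 and 5.1 in F344 and 4.8 and 4.9 in SD. All 5 SD pools lay below all 5 F344 pools. The difference was -0.52 (SE 0.119, adjusted p = 0.0972) in room air and -0.22 (SE 0.119, adjusted p = 0.815) in hyperoxia, and the room-air value was -0.54 with a term for the arrays numbered 3 (adjusted p = 0.0412).

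RT1-CE16 followed the same order. It read 5.2 and 5.0 in F344 and 4.7, 4.8 and 4.4 in SD in room air, and 5.1, 5.0 and 4.9 in F344 and 4.7 and 4.5 in SD in hyperoxia. Again no SD pool reached an F344 pool. The differences were -0.47 (SE 0.136, adjusted p = 0.218) and -0.40 (SE 0.136, adjusted p = 0.481). RT1-CE5 had a value of the same size and opposite sign in hyperoxia, 0.40 (SE 0.146, adjusted p = 0.568), and 0.03 in room air. It read 5.0, 5.3 and 5.0 in F344 and 5.6 and 5.4 in SD in hyperoxia, but 5.3 and 5.7 in F344 and 5.6, 5.4 and 5.6 in SD in room air, where the strains overlapped.

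Of the 10 CE genes, 8 lay below 0 in room air (median -0.17) and 7 in hyperoxia (median -0.06), led by RT1-CE16, RT1-CE11 at -0.40 and -0.27 and RT1-CE10 at -0.32 and -0.27. The 7 M genes had medians of 0.03 and 0.05. RT1-S3, for which RefSeq lists H2-T23 as a synonym, stood at 0.28 and 0.22, and RT1-N2 and RT1-N3 at 0.23 and 0.30 in room air and at -0.02 and 0.10 in hyperoxia. RT1-T24-1 stood at 0.28 in room air and -0.23 in hyperoxia, and RT1-T24-4 at -0.05 and -0.38. The other probe set of RT1-T24-4 stood at 0.22 (SE 0.234) in room air and -0.13 (SE 0.234) in hyperoxia and did not pass. The CE genes are near copies of each other, and signal from one copy may be read on the probe set of another: RT1-CE7 and RT1-CE13 are also listed on probe sets with several symbols, with which they share an accession. Among the other class I genes RT1-N2 and RT1-N3 share an accession with each other, and the probe sets of RT1-T24-4 do so too. The 4 probe sets with several symbols did not pass either, with differences between -0.30 and -0.07 over both exposures.

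Both strain comparisons use separate arrays. The 34 genes kept the same sign in both exposures in 25 cases (73.5%), 12 higher and 13 lower in SD, against 45.3% of all genes. Their differences correlated at a Pearson r of 0.876 across the 34 genes, and at 0.53 without RT1-Bb and RT1-DOb, against 0.204 across all genes. Genes of 1 region are not independent. The arrays that stood apart on the first principal component are SD in room air and F344 in hyperoxia. A shift common to them enters the strain differences of both exposures with opposite signs. Over all genes 6740 had opposite signs and 6484 the same sign. The term common to these arrays passed in 16.1% of all genes and 8.82% of the RT1 genes. How far such a shift lowered the values over all genes was not tested. The strains did not overlap in room air in 10 of 34 genes (20.7% of all genes) and in hyperoxia in 12 (15.4%). Over both exposures, 5 pools against 5, 4 genes did not overlap: RT1-Bb and RT1-DOb with SD above, RT1-CE16 and RT1-M3-1 with SD below (2.35% of all genes). With the strain difference averaged over both exposures, chosen after these values were seen, RT1-Bb (1.82, adjusted p = 2.88e-07) and RT1-DOb (1.09, adjusted p = 2.11e-05) passed (0.873% of all genes were higher and 0.614% lower). RT1-CE16 (-0.43, adjusted p = 0.0512), RT1-M3-1 (-0.37, adjusted p = 0.0622) and RT1-Ba (0.38, adjusted p = 0.0805) came next and did not.

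**Figure D2:**
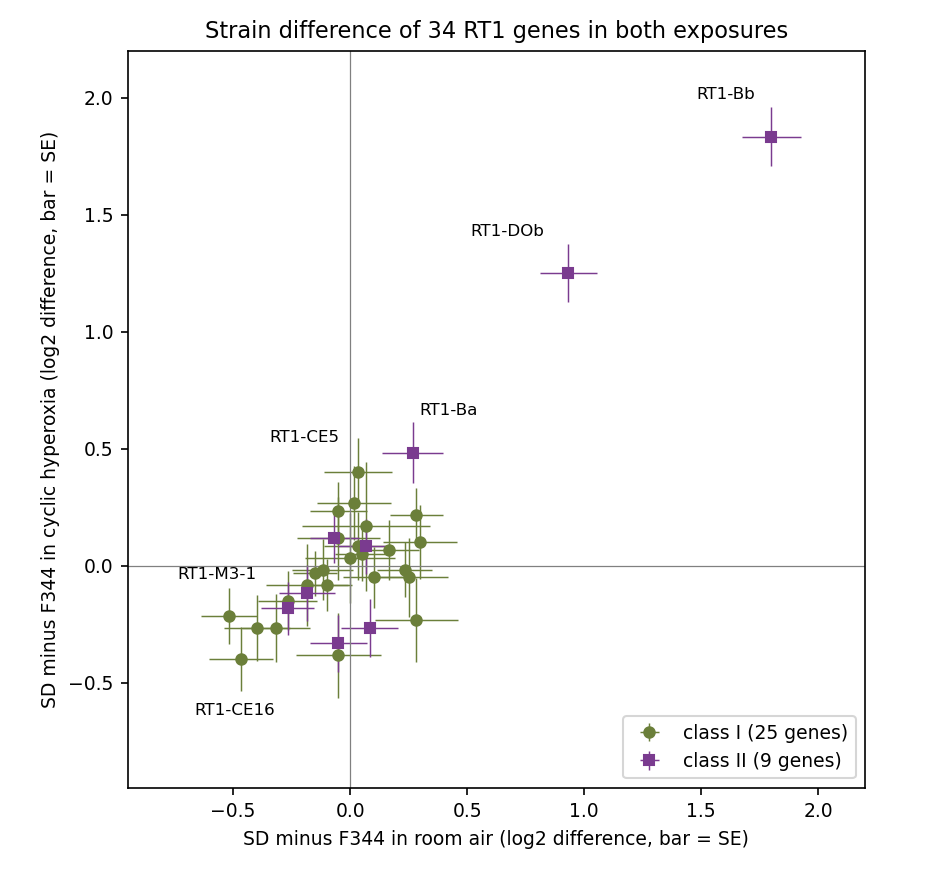
SD minus F344 log2 difference of the 34 RT1 genes in room air (horizontal axis) against cyclic hyperoxia (vertical axis); circles are class I, squares class II and bars 1 SE. RT1-Bb (1.80, 1.83) and RT1-DOb (0.93, 1.25) lie far from the other genes, which lie within 0.52 of 0 on both axes.

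On chromosome 20 of GRCr8, used here for gene order only, RT1-Bb and RT1-DOb are neighbours among the genes measured here, and the next ones are Tap2, Psmb8, Tap1 and Psmb9. Tap1 and Tap2 encode the transporter that brings peptides to class I molecules, and Psmb8 and Psmb9 subunits of the immunoproteasome that cuts them. SD was lower than F344 in Tap2 (-2.47 and -2.45), Tap1 (-1.12 and -0.97) and Psmb9 (-0.63 and -0.95) in room air and hyperoxia, with adjusted p between 4.69e-07 and 0.0223, while Psmb8 stood at -0.08 and -0.03. The strain differences thus changed sign between neighbouring genes, from SD higher in RT1-DOb to SD lower in Tap2. RT1-Ba on the one side and RT1-DMb on the other did not pass. Of the 100 other named genes between the outermost RT1 members, 1 was higher and 6 were lower in SD in room air (0.377% and 0.175% of all genes), and 1 was higher and 7 lower in hyperoxia (0.237% each way).

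**Figure D3:**
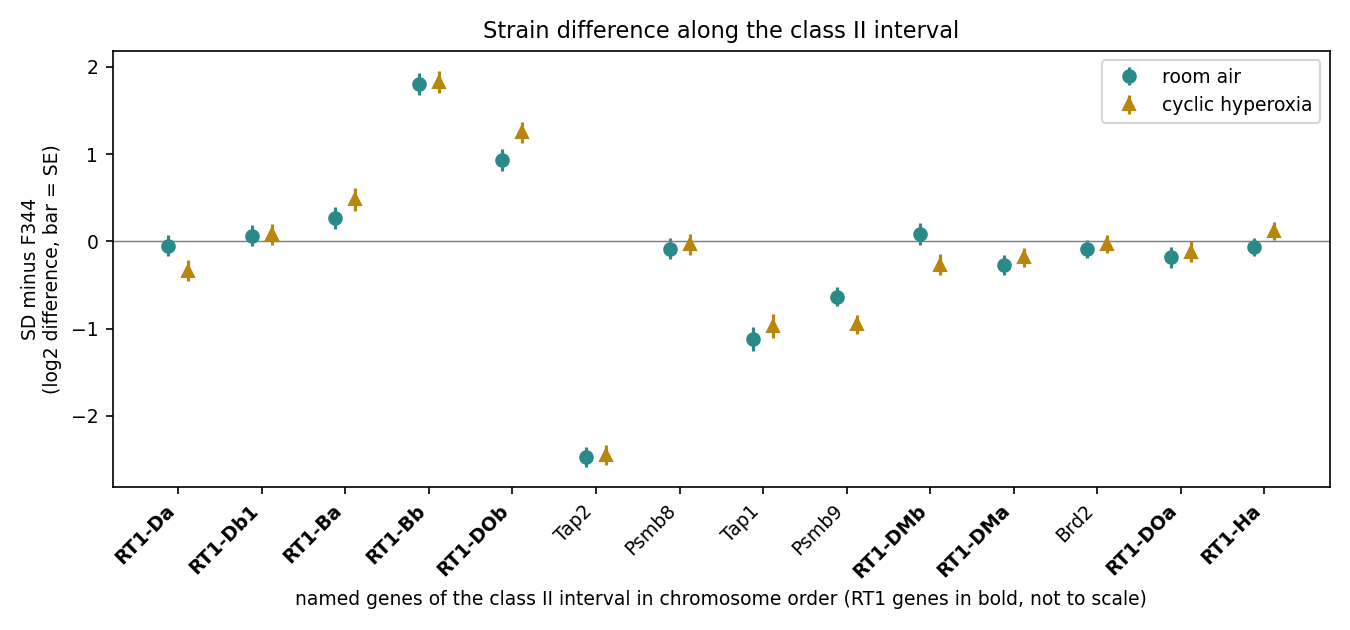
SD minus F344 log2 difference (vertical axis, bars 1 SE) of the 14 named genes from RT1-Da to RT1-Ha in chromosome order, in room air (circles) and cyclic hyperoxia (triangles). The difference peaks at RT1-Bb, is lowest at the nearby Tap2 (-2.47 and -2.45) and lies within 0.33 of 0 in RT1-Da and RT1-Db1 at one end and from RT1-DMb to RT1-Ha at the other.

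Genes that supply or control the class II pathway were compared next. Of 15 measured genes of class II antigen processing, 0 passed in either strain comparison (medians 0.13 and -0.08). In room air 12 of them lay above 0 and 3 below, and in hyperoxia 3 above and 11 below. The mean level of this list was 7.63 to 7.67 in F344 and 7.73 to 7.87 in SD in room air, without overlap. In hyperoxia it was 7.71 to 7.86 in F344 and 7.73 to 7.75 in SD, with overlap. Cd74, the invariant chain that escorts class II pairs, stood at 0.13 (SE 0.112) and -0.18 (SE 0.112), and Ciita, the master activator of class II genes, at -0.08 (SE 0.119) and -0.02 (SE 0.119). Both were dim: over all pools Cd74 read 4.6 to 5 and Ciita 4.5 to 4.8, below the array medians of 5.9 to 6. Whether their probe sets read any transcript was not tested. The largest values were Lgmn, a protease of the endosome, at 0.50 (SE 0.168, adjusted p = 0.283) in room air and Ctsb at 0.25 (SE 0.11, adjusted p = 0.722) in hyperoxia. Of 15 genes of class I antigen processing, Tap2, Tap1 and Psmb9 were lower in both exposures and 0 higher. B2m, which encodes beta-2 microglobulin, stood at 0.83 (SE 0.335, adjusted p = 0.377) and -0.27 (SE 0.335, adjusted p = 0.919). It was highest in the arrays numbered 3, with 9.2 against 8.1 and 8.3 in the other SD room-air pools and 8.8 against 7.6 and 7.8 in the other F344 hyperoxia pools. Without both arrays the B2m differences of group means were 0.50 and 0.10, a change of sign in hyperoxia.

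Interferons are the main inducers of RT1 genes. Of 29 interferon response genes 0 passed in either comparison (medians -0.05 and -0.02), with Irf1 at 0.67 (SE 0.169, adjusted p = 0.141) and Ifit2 at -0.37 (SE 0.136, adjusted p = 0.333) in room air, and at -0.33 (adjusted p = 0.788) and 0 in hyperoxia. Without both arrays numbered 3 the Irf1 differences of group means were 0.60 and -0.15, and those of Ifit2 -0.50 and 0.05. None of 7 interferon ligands and receptors (medians -0.02 and 0.10) and none of 7 receptors that read class I molecules (medians -0.08 and -0.02) passed. All 7 interferon ligand and receptor genes lay above 0 in hyperoxia, against 3 above and 4 below in room air. Their mean level in hyperoxia was 7.44 to 7.57 in F344 and 7.59 to 7.64 in SD, without overlap. In room air it was 7.57 to 7.61 in F344 and 7.47 to 7.66 in SD, with overlap. The lowest and highest mean levels of the interferon response list over all pools were 4.9 and 5.06, and the strains overlapped in it in both exposures. Most of these genes were dim: 2 of 29 interferon response genes lay above the array median in every array. Among the receptors that read class I molecules 0 of 7 did. Whether the probe sets of the dim genes read any transcript was not tested.

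Markers of cells that carry class II molecules were compared as well, since in bulk tissue more cells of a type and more RNA per cell cannot be told apart. Of 19 microglia genes, C1qc was higher in SD in room air (0.67, SE 0.122, adjusted p = 0.0308) and stood at -0.03 in hyperoxia; 0 others passed in either comparison. The mean level of this list was 5.42 to 5.43 in F344 and 5.49 to 5.67 in SD in room air, and 5.4 to 5.56 in F344 and 5.44 in both SD pools in hyperoxia. The strains thus did not overlap in this list in room air and overlapped in hyperoxia. The part of microglia in the RT1 values of either exposure was not tested. Dendritic cell genes had medians of 0 and -0.03 and B cell genes of -0.06 and -0.13, and 0 of either passed. Some other cell lists separated the strains in 1 exposure. The mean of the 7 erythroid genes was 5.29 to 5.36 in F344 and 5.49 to 5.64 in SD in hyperoxia, and overlapped in room air (5.27 to 5.46 and 5.41 to 5.84). Within it Hbb-b1, a beta globin gene, read 6.0 and 6.4 in F344 and 6.6, 7.7 and 7.8 in SD in room air, and 6.1, 6.5 and 6.3 in F344 and 7.3 and 6.9 in SD in hyperoxia, so every SD pool lay above every F344 pool. It passed in the averaged comparison (0.98, adjusted p = 0.0374) and not in room air (1.17, adjusted p = 0.136) or hyperoxia (0.80, adjusted p = 0.568). Photoreceptor genes separated in room air (9.15 to 9.17 in F344, 9.33 to 9.78 in SD) and ganglion cell genes in hyperoxia (8.29 to 8.61 in F344, 8.12 to 8.16 in SD), with 0 genes of either list passing in room air or hyperoxia. The part of these cells in the RT1 values was not tested. Each value here is hybridisation to a probe set, and how well the probes match the RT1 alleles of either strain was not tested.

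Cyclic hyperoxia changed no RT1 gene past the test in either strain. By limma 0 of 34 genes were higher or lower in hyperoxia in SD (0.0489% of all genes passed, in either direction) and 0 in F344 (0.00698%). The pathway and interferon lists above held 0 passing genes in either strain as well. At an unadjusted p under 0.05 there were 0 RT1 genes in SD (4.68% of all genes) and 3 in F344 (8.82%, against 4.91% of all genes), RT1-CE5 at -0.40, RT1-DMb at 0.32 and RT1-N2 at 0.27. The medians were -0.02 in SD and -0.08 in F344 (all genes 0 in both). In SD, 14 RT1 genes lay above 0, 18 below and 2 at 0 (all genes 7081 above and 6594 below). In F344, 10 lay above 0 and 24 below (all genes 6745 above and 6905 below). The 95% intervals of all 34 genes lay within a 2-fold change in both strains, and those of 31 genes in SD and 29 in F344 within a 1.5-fold change. Of all 14324 genes, 14206 in SD and 14224 in F344 lay within a 2-fold change, and 12776 and 12837 within a 1.5-fold change.

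RT1-Bb had the same mean in exposed and room-air SD pools, with a difference of 0 (95% interval -0.27 to 0.27), and stood at -0.03 (-0.31 to 0.24) in F344. RT1-DOb stood at 0.22 (-0.05 to 0.48) in SD and at -0.10 (-0.36 to 0.16) in F344. The largest hyperoxia values were RT1-M6-2 at -0.35 (SE 0.168) in SD and RT1-CE5 at -0.40 (SE 0.146) in F344. RT1-M6-2 read 5.4 in SD room-air pool 3 and 4.7 and 4.9 in the other SD room-air pools, against 4.7 and 4.6 in hyperoxia. RT1-M6-1 had the widest spread of all members, with 5.8, 5.4 and 6.7 in the SD room-air pools and 6.0 in both SD hyperoxia pools.

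Whether hyperoxia acted differently on RT1 genes in SD and F344 was tested as the difference of both effects. By limma 0 of 34 passed (0% of all genes), and 0 had an unadjusted p under 0.05 (6.98% of all genes). Of the 34 values 23 lay above 0, 10 below and 1 at 0 (all genes 7249 above and 6612 below). The values for RT1-Bb and RT1-DOb were 0.03 (95% interval -0.35 to 0.42) and 0.32 (-0.06 to 0.69). The largest was RT1-T24-1 at -0.52 (SE 0.252, adjusted p = 0.651), which stood at -0.13 in SD and 0.38 in F344, where 1 of the hyperoxia pools, pool 3, read 6.4 and the others 6.1 and 5.9.

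**Figure D4:**
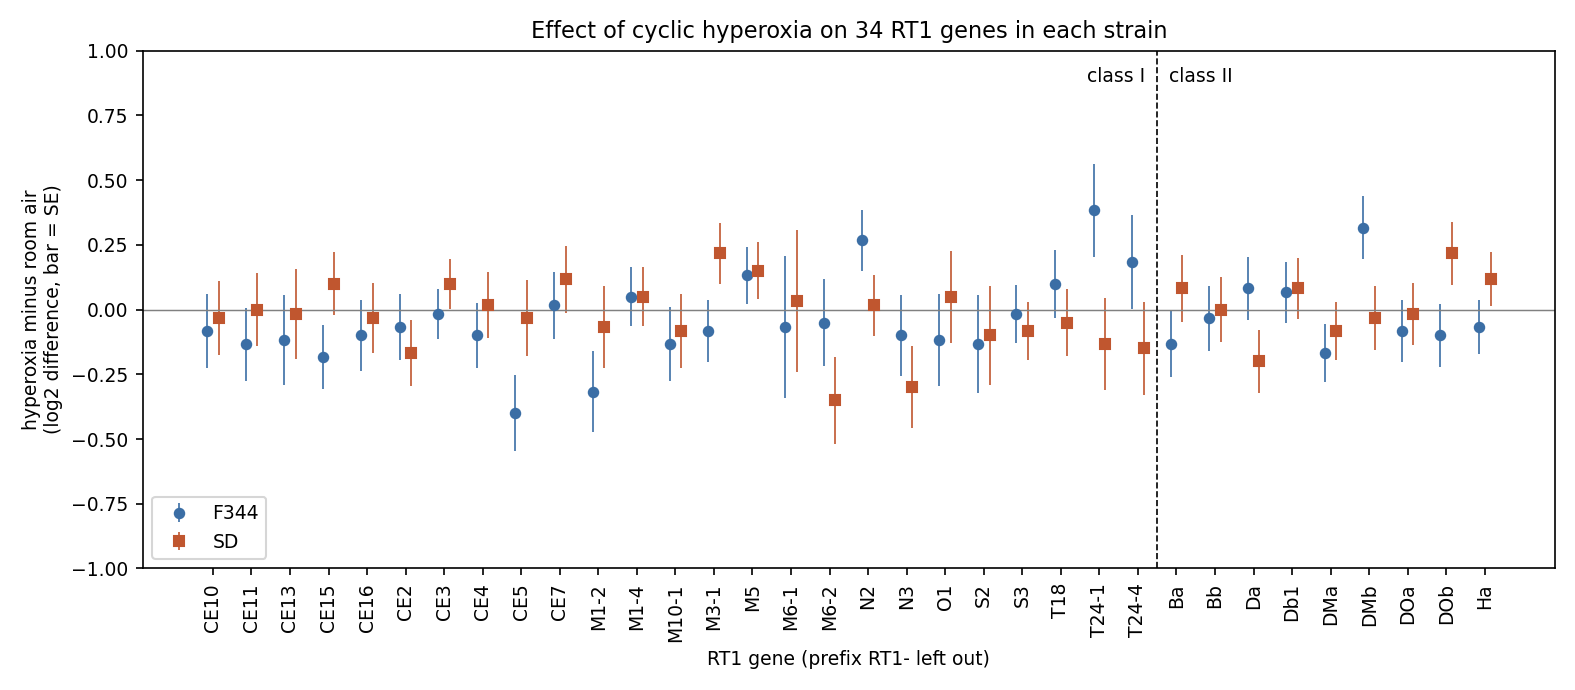
Hyperoxia minus room air log2 difference (vertical axis, bars 1 SE) of each of the 34 RT1 genes in F344 (circles) and SD (squares), class I to the left of the dashed line and class II to the right. All values lie between -0.40 and 0.38, and 0 genes passed in either strain.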

How the data were processed

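Retinal RNA pools of 4 groups (strain by exposure, from the sample titles) were hybridised to Affymetrix whole-transcript arrays. The authors deposited log2 expression values per probe set to 1 decimal, between 3.1 and 14. The submitters' processing notes name RMA and Partek 6.4 without saying what each did; the background correction and scaling behind the values are not stated, and rounding limits small differences. In R 4.3.3 with limma 3.58.1, limma group means were estimated over 27342 probe sets and all 10 arrays (6 residual degrees of freedom), with eBayes, two-sided, and Benjamini-Hochberg adjustment at 0.05. Array number limits the precision. The annotation gave 1 symbol to 15097 probe sets, several to 323 and none to 11922. Class II means a letter B, D or H after RT1-, class I any other. Named genes were the RT1 genes that passed, the largest differences of each class that did not, and per pathway list up to 4 that passed or up to 2 with the largest difference; RT1-Da, RT1-Db1, Cd74, Ciita, B2m, Psmb8 and further RT1 genes were added for their role or after their values were seen. Alternatives changed the normalization, the spread model, the filter, the probe set rule, the arrays fitted and their weights. Members, lists and tests were chosen with earlier results of these data known. The fit was tested on simulated data. Over the numbers 1 and 2, deviations of same-numbered pools correlated between -0.061 and 0.145, over 0.1 in 1 of 6 pairs of groups, so numbers were not treated as pairs. The arrays numbered 3 lay outside this check, and a term for them was fitted as an alternative.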

Additional observations from a re-analysis of the deposited data

How the results depend on the processing

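RT1-Bb passed in both strain comparisons under every alternative run, with differences between 1.70 and 1.93 (adjusted p at most 0.0474). RT1-DOb passed in hyperoxia under every alternative that held it (adjusted p at most 0.0474), and failed in room air in 2 cases: 0.83 (adjusted p = 0.0963) without F344 room-air pool 1, and 0.93 (adjusted p = 0.175) in a fit of only the room-air arrays. Leaving out each pool in turn gave 1 to 2 higher members in room air and 2 to 2 in hyperoxia. The brighter part of the probe sets held 6 members, without RT1-DOb: 1 was higher in each exposure, with class II medians of 0.77 and 0.83 over 2 genes and a class I median of -0.16 in hyperoxia over 4. Fitting the groups compared alone gave 1 higher in room air. With the replicate number as a block (replicate block) 2 members were higher and 1 lower (RT1-M3-1, -0.54, adjusted p = 0.0447) in room air, and 3 higher and 0 lower in hyperoxia, RT1-Ba being the added one (0.55, adjusted p = 0.041). The term for the arrays numbered 3 gave the same counts, with 1 lower in room air (RT1-M3-1), and array weights gave 3 higher in hyperoxia. Over the numbers 1 and 2, deviations of same-numbered pools correlated at -0.061 between strains in room air and -0.023 in hyperoxia; over all 6 pairs of groups the highest was 0.145, between SD room air and F344 hyperoxia, the groups that hold the arrays numbered 3. No alternative run gave a member for an exposure effect or for its strain difference. The signal of the probes over background was not analysed here, and most RT1 probe sets are dim, so small differences may be understated.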
